A study of Homo sapiens with 9 samples.

Results

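HK-2 cells held in TGFb1 for 48 h were compared with HK-2 cells held in it for 24 h, to describe which transcripts still differed between the later and the earlier time. Of the 9 arrays in the study, 6 carry this comparison: the 3 titled 48hrs and the 3 titled 24hrs, paired by the replicate number in the title. The 3 arrays of untreated cells, titled 0hrs, give the level before treatment and add to the estimate of the spread. HK-2 is an immortalised epithelial line from human kidney proximal tubule, and all groups were grown in DMEM-F12 with EGF, hydrocortisone, triiodothyronine and a supplement of insulin, transferrin and selenium. Plates of a time point were pooled within a run, and the 3 runs used consecutive passages on different days, so a replicate is a run of 1 cell line and not a separate donor. The 0 h group is untreated in the sample labels and vehicle in the design text. No untreated culture kept for 24 h or 48 h was analysed here, so hours of TGFb1 and hours in culture cannot be told apart. In pooled RNA, fewer cells of a type and less RNA per cell cannot be told apart either.

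TGF-beta binds a pair of kinase receptors that phosphorylate SMAD2 and SMAD3, which enter the nucleus with SMAD4 and act on target genes. In kidney tubule cells it drives epithelial to mesenchymal transition (EMT), in which cells lose junctions and transport proteins and gain cytoskeletal and matrix proteins, and sustained TGF-beta is a central signal of renal fibrosis. Early direct targets, such as inhibitory SMADs and the JAG1 ligand of Notch, are known to respond before the slower remodelling of matrix and metabolism.

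Values are log2 levels of 1 probe set per gene, deposited by the authors after GCRMA, and a difference of 1 is a 2-fold difference. Of 11963 named genes, 4368 reached a log2 level of 4 on 3 or more arrays and were tested with limma, with the run as a block. A gene was called at an adjusted p (Benjamini-Hochberg) below 0.05. Array medians lay between 2.20 and 2.23. Of 10 proximal tubule markers on the array, only the kidney transcription factor PAX8 passed the filter. The other 9, among them the endocytic receptors LRP2 and CUBN and the water channel AQP1, were below log2 4 on all 9 arrays. The summed level of the proximal tubule markers was 7.07 to 7.17 at 24 h and 6.86 to 7.02 at 48 h. Of 7 fibroblast markers only LUM was tested, and PDGFRA, PDGFRB and COL1A2 had means of 1.81 or less at both times. Of the 12 podocyte, endothelial and leukocyte markers on the array none was tested.

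Between 24 h and 48 h, 0 genes passed the threshold in limma, 0 higher (0% of those tested) and 0 lower (0%). The smallest adjusted p was 0.0751, that of FXYD2, a small subunit that modulates the sodium pump of the tubule. At an unadjusted p below 0.05 there were 381 higher genes (8.72%) and 328 lower genes (7.51%). In the same fit 260 genes (5.95%) rose and 241 (5.52%) fell from untreated to 24 h, and 228 (5.22%) rose and 210 (4.81%) fell from untreated to 48 h. A mean difference of at least 1 was reached by 7 genes between 24 h and 48 h, against 191 between untreated and 24 h. The comparisons share arrays. Besides genes described below, the 7 include PHIP (1.07 ± 0.26, SE) and CYP1B1 (1.03 ± 0.49), a xenobiotic-metabolising enzyme, both named here after their values were seen.

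The runs differed in how far 48 h lay from 24 h. The standard deviation of the difference over the 4368 genes was 0.275 in run 1, 0.405 in run 2 and 0.361 in run 3. Genes higher by at least 1 numbered 12, 104 and 35 in the 3 runs, and genes lower by at least 1 numbered 8, 20 and 14. Across genes, which are not independent replicates, the differences of runs 2 and 3 correlated at 0.616, those of runs 1 and 2 at 0.196 and those of runs 1 and 3 at 0.227. Differences had the same sign in all 3 runs for 923 genes higher at 48 h (21.1%) and 976 lower (22.3%). These shares are the background for the counts in gene lists given below. Differences reached at least 0.5 in every run for 22 higher genes (0.504%) and 21 lower (0.481%). The 24 h and 48 h arrays did not overlap for 277 higher genes (6.34%) and 273 lower genes (6.25%).

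Because no gene was called, 24 genes were named by their weakest run: the 12 higher and the 12 lower genes whose smallest within-run difference was largest. Agreement between runs is therefore built into these genes, and their values describe them without supporting a difference. The last gene inside on the higher side had a smallest run difference of 0.60 (BTN3A2), and the first outside had 0.54 (PIGA). On the lower side these values were −0.58 for the last inside, TP53I3, and −0.58 for the first outside, PDZK1IP1. None of the 24 passed the threshold, and their adjusted p-values ran from 0.0751 to 0.227. On the higher side ENPEP, PJA2, DST, CTR9, PDS5B, RBM26 and BTN3A2 had 24 h means below untreated by at least 0.5. On the lower side MMP9, NOP16, ADA, POLR1C, KCNK3 and TP53I3 had 24 h means above untreated by at least 0.5. For these genes the difference from 24 h to 48 h ran toward the untreated level.

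**Figure D1:**
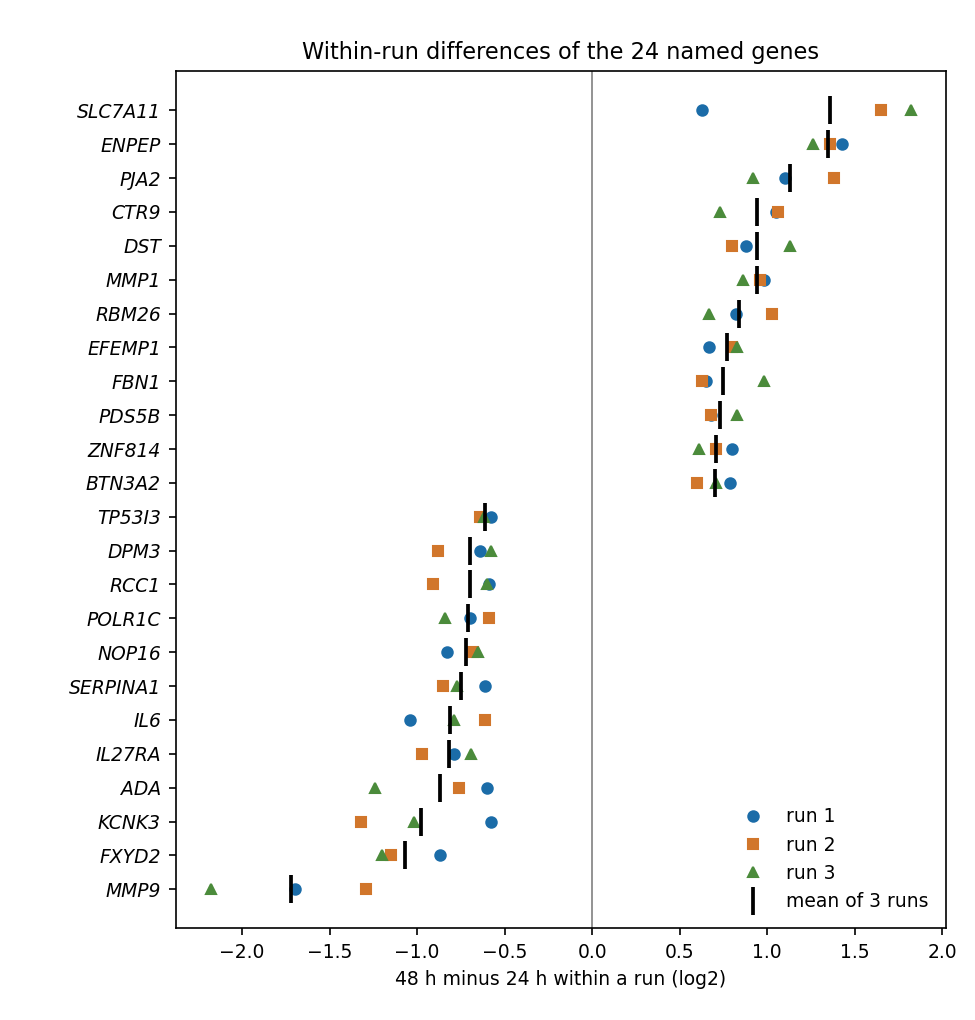
Within-run difference of 48 h minus 24 h (log2, horizontal axis) for the 24 named genes, 1 marker per run and a bar at the mean of the 3 runs. The points lie on 1 side of 0 for every gene, as the choice of genes requires, and spread most for SLC7A11 (0.63 to 1.82) and MMP9 (−2.18 to −1.29).

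Matrix-degrading enzymes stood on opposite sides. MMP1, the interstitial collagenase that cuts fibrillar collagen, was higher at 48 h, whereas MMP9, a gelatinase that cuts denatured collagen and basement membrane, was lower. MMP1 had levels of 5.36, 4.16 and 5.82 in untreated cells, 7.58, 6.78 and 7.85 at 24 h and 8.56, 7.74 and 8.71 at 48 h, in runs 1, 2 and 3. The level was higher at 48 h in each run by 0.86 to 0.98, although the arrays of the 2 times overlapped because run 2 was low throughout. The mean difference was 0.94 ± 0.15 (1.91-fold, adjusted p = 0.127), and the rise from untreated to 24 h was 2.29 (adjusted p = 6.61e-05). MMP9 had 2.68, 3.37 and 2.96 in untreated cells, 4.95, 4.33 and 6.09 at 24 h and 3.25, 3.04 and 3.91 at 48 h. All 48 h arrays lay below all 24 h arrays, and 2 of them lay within the untreated range. The difference was −1.72 ± 0.33 (3.30-fold lower at 48 h, adjusted p = 0.165), after a rise of 2.12 at 24 h (adjusted p = 0.00474). MMP9 reached log2 4 on the 24 h arrays alone, so it passed the filter only through the group where it is high, which favours a lower level at 48 h. Of all genes tested, 3 passed in this way. The level at 48 h was 0.39 above untreated cells (adjusted p = 0.541).

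Among 14 tested matrix proteases and inhibitors, 1 was higher in all 3 runs and 7 were lower, with a median of −0.18 against 0 over all genes tested. ADAMTS1, a protease of proteoglycans, differed by −0.57 ± 0.16 (adjusted p = 0.217). SERPINE2, an inhibitor of thrombin and plasminogen activators, differed by −0.55 ± 0.13 (adjusted p = 0.185). The lower members also included the metalloproteinase inhibitors TIMP1 (−0.22) and TIMP2 (−0.15) and the lysosomal proteases CTSB (−0.27) and CTSL (−0.20). None passed the threshold, and with values adjusted in each array for the genomic span of the genes (an alternative described with the results on span) the median was −0.12.

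EFEMP1 and FBN1 were the named genes of the extracellular matrix on the higher side besides MMP1. EFEMP1, which encodes the fibulin-3 glycoprotein of elastic fibres and basement membranes, was at 3.43, 2.82 and 2.56 in untreated cells, 4.49, 4.19 and 4.18 at 24 h and 5.16, 4.99 and 5.01 at 48 h. The 3 groups did not overlap. The difference was 0.77 ± 0.15 (1.70-fold, adjusted p = 0.165), after a rise of 1.35 at 24 h (adjusted p = 0.000794). FBN1, the microfibril protein fibrillin-1, was at 3.61, 2.56 and 3.78 untreated, 5.01, 4.84 and 4.86 at 24 h and 5.65, 5.47 and 5.83 at 48 h. Its groups did not overlap either, and it differed by 0.75 ± 0.22 (adjusted p = 0.223) after a rise of 1.59 (adjusted p = 0.0025).

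LUM, the keratan sulphate proteoglycan lumican, was the only fibroblast marker above the filter. It was at 6.23, 6.41 and 6.81 untreated, 6.40, 5.82 and 6.13 at 24 h and 6.65, 6.94 and 6.86 at 48 h. The 24 h and 48 h arrays did not overlap, while run 1 differed by only 0.25 and run 2 by 1.13. The untreated arrays overlapped both. The mean difference was 0.70 ± 0.19 (adjusted p = 0.217). The summed level of the fibroblast markers was 6.64 to 7.03 untreated, 6.34 to 6.82 at 24 h and 6.99 to 7.17 at 48 h. Its part in other results was not tested. VCAN, the large proteoglycan versican, had means of 8.36 untreated, 7.76 at 24 h and 8.26 at 48 h on the set used. It differed between the treated times by 0.50 ± 0.17 on that set (adjusted p = 0.251) and by 0.37 to 0.67 over its 5 tested probe sets. On each of these sets the 24 h mean was below the untreated mean. SPARC, a collagen-binding protein, differed by 0.21 ± 0.11 (adjusted p = 0.369). Of the 20 tested matrix glycoproteins and elastic fibre genes, 7 were higher in all 3 runs and 2 lower, with a median of 0.08. VCAN ranged from 0.31 to 0.64 with an array or a run left out.

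FN1, fibronectin, gave different readings by probe set. The set used, which was bright, was at 11.23, 11.38 and 11.23 at 24 h and 11.47, 11.63 and 11.54 at 48 h, a difference of 0.26 ± 0.13 (adjusted p = 0.365), and the 4 bright sets differed by 0.24 to 0.32. A dim set had means of 3.21 before treatment, 4.07 at 24 h and 5.04 at 48 h and differed between the times by 0.97 ± 0.14. Another dim set had means of 3.32, 4.87 and 6.32 and differed by 1.46 ± 0.20. With every probe set tested, both dim sets had an adjusted p of 0.119. The dim sets thus gave larger differences than the bright ones. Among 5 tested collagens, 0 were higher in all 3 runs and 3 were lower, led by COL6A1 (−0.35 ± 0.11, adjusted p = 0.234). These are long genes (median span 109 kb), and of the longest tested genes 34.8% were higher and 9.95% lower in all 3 runs. The collagen median was −0.06, or −0.20 with the span adjustment. COL1A1 and COL3A1 did not pass the filter, with means of 3.08 and 2.84 and of 1.37 and 1.44 at 24 h and 48 h.

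**Figure D2:**
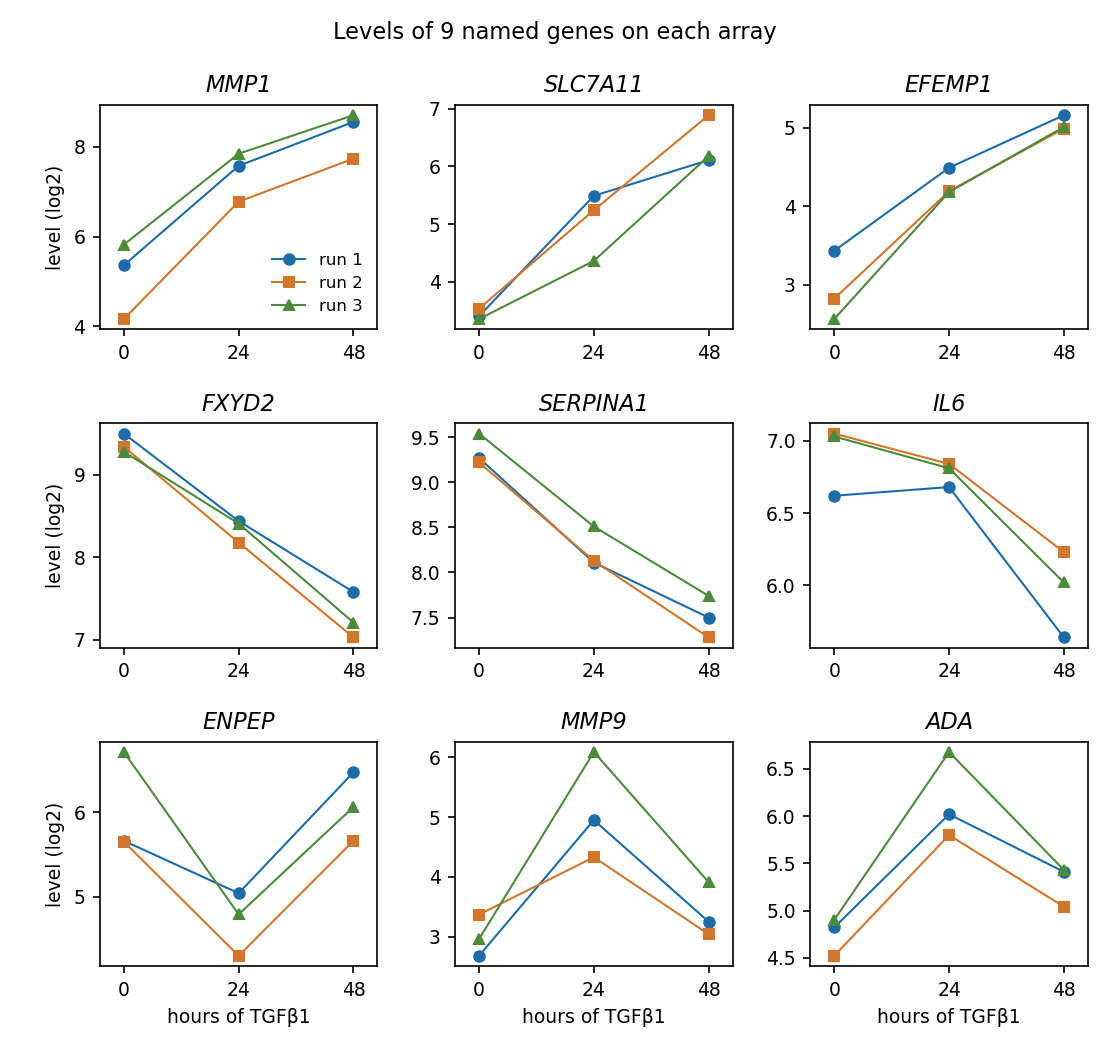
Level (log2, vertical axis) of 9 named genes against hours of TGFb1 (0, 24 and 48), 1 line per run. MMP1, SLC7A11 and EFEMP1 were above their 24 h level at 48 h in each run, FXYD2, SERPINA1 and IL6 were below it, and for ENPEP, MMP9 and ADA the 48 h points lie on the side of the untreated cells.

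Genes of tubule transport and secretion included the smallest p-value. FXYD2 was at 9.50, 9.34 and 9.28 in untreated cells, 8.44, 8.18 and 8.41 at 24 h and 7.58, 7.03 and 7.21 at 48 h. The groups were fully separate, and the step from 24 h to 48 h (−1.07 ± 0.12, 2.10-fold lower, adjusted p = 0.0751) was close in size to the fall from untreated to 24 h (−1.03, adjusted p = 0.00114). Its probe set is of the kind marked as holding probes that may match related sequences. So are the sets used for other genes given here, among them DST, PDS5B, JAG1, CXCL2, IFITM3 and RBPJ. With quantile normalization, with the mean of all probe sets of a gene, with a log2 floor of 6 and with an intensity trend in the prior, FXYD2 passed the threshold, at adjusted p-values of 0.0485, 0.0348, 0.0203 and 0.000338.

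SERPINA1, the elastase inhibitor alpha-1 antitrypsin, was at 9.27, 9.22 and 9.54 untreated, 8.11, 8.13 and 8.51 at 24 h and 7.50, 7.28 and 7.74 at 48 h. It too had 3 separate groups. The difference of −0.75 ± 0.10 (1.68-fold lower, adjusted p = 0.127) followed a fall at 24 h (−1.09, adjusted p = 0.000446), and another probe set gave −0.72. ENPEP, glutamyl aminopeptidase, a brush border enzyme that cleaves angiotensin II, went the other way. It was at 5.66, 5.65 and 6.71 untreated, 5.04, 4.30 and 4.79 at 24 h and 6.47, 5.66 and 6.06 at 48 h. The 48 h arrays lay above all 24 h arrays and within the untreated range. The difference was 1.35 ± 0.25 (2.55-fold, adjusted p = 0.154) after a fall at 24 h (−1.30, adjusted p = 0.0127), and its other probe set gave 1.42. Differences from untreated to 24 h and from 24 h to 48 h use the same 24 h arrays with opposite sign, so an extreme 24 h value alone moves them in opposite directions.

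KCNK3, a background potassium channel, was at 4.05, 4.17 and 3.47 untreated, 5.47, 6.10 and 5.91 at 24 h and 4.89, 4.78 and 4.89 at 48 h. The 48 h arrays lay between the other groups. Its difference was −0.98 ± 0.20 (adjusted p = 0.176) after a rise of 1.93 (adjusted p = 0.000652). The channel genes SCNN1A and KCNJ16, which had fallen at 24 h, lay closer to their 24 h level than to that of untreated cells. SCNN1A, a subunit of the epithelial sodium channel and a distal nephron marker, had means of 6.41, 3.21 and 3.54, and the 48 h difference of 0.33 ± 0.16 (adjusted p = 0.339) was 0.79, 0.08 and 0.13 in the 3 runs, on arrays below log2 4. Other probe sets of similar brightness gave 0.06 and −0.18. KCNJ16, an inward rectifier of the basolateral membrane, had means of 6.79, 3.71 and 4.08 (0.37 ± 0.11, adjusted p = 0.227). SGK1, a kinase that raises sodium channel activity, had 7.11, 8.69 and 8.33 (−0.36 ± 0.13, adjusted p = 0.251). PAX8 had 7.37, 6.77 and 6.56 (−0.21 ± 0.10, adjusted p = 0.356), and its 5 other tested sets ranged from −0.18 to 0.23. Of 10 tested potassium and sodium transport genes, 5 were higher in all 3 runs and 3 lower (median 0.17). They are long genes (median span 54.2 kb), and with the span adjustment the median was 0.06.

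Of the 3 named immune genes, IL6 and IL27RA were lower at 48 h and BTN3A2 was higher. Promoters of this group are printed because each holds a searched motif, in the 250 bases before the start site in RefSeq (GRCh38.p14), 5′ to 3′ on the strand of the gene, with the match in capitals. The first is that of IL6 at chr7:22726950-22727199, the second that of IL27RA at chr19:14031512-14031761 and the third that of BTN3A2 at chr6:26364948-26365197, all on the plus strand.
IL6: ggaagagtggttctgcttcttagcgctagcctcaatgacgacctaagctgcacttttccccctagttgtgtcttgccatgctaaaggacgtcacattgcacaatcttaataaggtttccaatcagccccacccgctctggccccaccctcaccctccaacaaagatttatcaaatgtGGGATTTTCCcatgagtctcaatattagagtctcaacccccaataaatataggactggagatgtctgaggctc
IL27RA: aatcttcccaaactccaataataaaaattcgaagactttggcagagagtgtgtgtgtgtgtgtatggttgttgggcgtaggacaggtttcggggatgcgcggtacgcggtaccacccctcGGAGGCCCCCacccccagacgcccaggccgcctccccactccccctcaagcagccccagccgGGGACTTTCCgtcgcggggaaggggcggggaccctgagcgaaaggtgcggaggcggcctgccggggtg
BTN3A2: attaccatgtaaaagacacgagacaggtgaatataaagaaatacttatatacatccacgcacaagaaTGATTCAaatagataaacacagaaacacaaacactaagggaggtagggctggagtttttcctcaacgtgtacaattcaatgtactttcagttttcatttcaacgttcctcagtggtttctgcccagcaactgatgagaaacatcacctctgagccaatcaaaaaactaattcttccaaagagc
The capitals mark matches to the kappa-B consensus, bound by NF-kB, in IL6 (73 to 64 bases before the start) and in IL27RA (130 to 121 and 68 to 59 bases before). In BTN3A2 they mark TGATTCA (183 to 177 bases before). It matches TGANTCA, a loose pattern for the AP-1 site in which N is any base. Windows were found for 9 of the 12 higher and 10 of the 12 lower named genes. The kappa-B consensus, added to the search after the windows had been read, was in 0 of the 9 and 2 of the 10, and in 11.8% of 3714 tested genes with a window. The loose AP-1 pattern was in 1 of the 9 and 0 of the 10, against 3.77%. The SMAD palindrome GTCTAGAC (0.108%), the amino acid response element core TGATGCAA (0.485%) and the cAMP response element TGACGTCA (3.39%) were in none of the 19 windows. Both strands were searched, and a match is a run of letters and not evidence of binding.

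IL6, an inflammatory cytokine also secreted by tubule cells, was at 6.62, 7.05 and 7.03 untreated, 6.68, 6.84 and 6.81 at 24 h and 5.64, 6.23 and 6.02 at 48 h. The untreated and 24 h arrays overlapped, and all 48 h arrays lay below both. The difference from 24 h was −0.81 ± 0.12 (1.76-fold lower, adjusted p = 0.127), that from untreated to 24 h was −0.12, and the fall from untreated to 48 h was −0.94 (adjusted p = 0.00174). IL27RA, a cytokine receptor subunit, was at 4.31, 3.38 and 3.87 at 24 h and 3.52, 2.41 and 3.17 at 48 h. Its arrays overlapped between the times, and no 48 h array reached log2 4. The difference was −0.82 ± 0.18 (adjusted p = 0.176), while a dim second set gave −0.21. BTN3A2, a butyrophilin of a family that takes part in the sensing of phosphoantigens by T cells, was at 6.38, 5.53 and 6.22 untreated, 5.02, 4.52 and 4.75 at 24 h and 5.82, 5.11 and 5.46 at 48 h. The 48 h arrays lay above all 24 h arrays. It differed by 0.70 ± 0.12 (adjusted p = 0.127) after a fall at 24 h (−1.28, adjusted p = 0.000446), and a set near background gave −0.08.

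Of 12 tested inflammatory cytokine and chemokine genes, 0 were higher in all 3 runs and 6 were lower, with a median of −0.08 (−0.14 with the span adjustment). Their median span is 6.19 kb, and of the shortest tested genes 41.5% were lower in all 3 runs. ICAM1, a leukocyte adhesion molecule, had means of 5.75, 5.44 and 5.05 in the 3 groups (48 h minus 24 h −0.39 ± 0.11, adjusted p = 0.227), though a dim set gave 0.07. CXCL2, a neutrophil chemokine, had 6.27, 5.89 and 5.51 (−0.38 ± 0.13, adjusted p = 0.249). Both fell from untreated to 48 h (adjusted p = 0.00613 and 0.00787). IL11, the gp130 cytokine known as a target of TGF-beta, did not share this: its means were 2.36, 5.04 and 5.05.

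Of 12 antigen presentation genes 0 were higher in all 3 runs and 6 lower, with a median of −0.14. These are short genes (median span 5.17 kb), and of the shortest tested genes 41.5% were lower in all 3 runs. With the span adjustment the median was −0.05. PSMB8, PSMB9 and PSMB10, the catalytic subunits of the immunoproteasome, differed by −0.39 ± 0.12, −0.37 ± 0.13 and −0.35 ± 0.19 (adjusted p = 0.227, 0.251 and 0.379), the last with a range of −0.51 to −0.20 when an array or a run was left out. B2M, the light chain of class I molecules, was at 0.01. Among 6 interferon-stimulated genes 2 were higher in all 3 runs and 3 lower, and the DNA sensor IFI16 was on the higher side (0.57 ± 0.26, adjusted p = 0.332). The interferon list is also short in span (median 5.93 kb), and its median was −0.13, or −0.03 with the span adjustment. ISG15, a ubiquitin-like protein, was at 6.79, 6.60 and 6.66 at 24 h and 5.84, 6.17 and 6.05 at 48 h, with no overlap (−0.66 ± 0.21, adjusted p = 0.234). IFITM3, a membrane protein that restricts viral entry, had means of 6.83, 6.19 and 5.73 (−0.45 ± 0.12, adjusted p = 0.217). The 3 leukocyte markers on the array, PTPRC, CD3E and CD14, had means of 1.44 or less at both times.

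Among metabolic and stress genes SLC7A11, the cystine and glutamate exchanger that supplies cystine for glutathione, had the largest mean difference on the higher side. It was at 3.40, 3.53 and 3.35 untreated, 5.49, 5.24 and 4.36 at 24 h and 6.11, 6.89 and 6.18 at 48 h. The 3 groups did not overlap, and the step to 48 h was 0.63 in run 1, 1.65 in run 2 and 1.82 in run 3. The mean difference was 1.36 ± 0.23 (2.57-fold, adjusted p = 0.127) after a rise of 1.60 (adjusted p = 0.00352), and a second set gave 1.31. Other genes of its functional groups were spread over both sides. Of 18 oxidative stress and NRF2 genes 5 were higher in all 3 runs and 1 lower (median 0.05), with the quinone reductase NQO1 at 0.22 ± 0.11 (adjusted p = 0.365) and the glutathione synthesis subunit GCLM at −0.18. Of 32 amino acid response and ATF4 target genes 5 were higher and 4 lower (median −0.10). SLC7A5, a transporter of large neutral amino acids, had means of 4.19, 5.25 and 4.56 (−0.68 ± 0.24, adjusted p = 0.251), and −0.84 to −0.44 with an array or a run left out.

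ADA, adenosine deaminase, was at 4.82, 4.52 and 4.90 untreated, 6.02, 5.80 and 6.68 at 24 h and 5.41, 5.04 and 5.43 at 48 h. Its 48 h arrays lay between the other groups. The difference was −0.87 ± 0.14 (1.83-fold lower, adjusted p = 0.127) after a rise of 1.42 (adjusted p = 0.000606). A dim second set of ADA gave −0.48. TP53I3, a quinone oxidoreductase and p53 target, was at 6.57, 7.0 and 6.07 at 24 h and 6.0, 6.36 and 5.45 at 48 h. It differed by −0.61 ± 0.10 (adjusted p = 0.127), far less than its rise of 2.59 at 24 h (adjusted p = 7.36e-06). Of 10 tested p53 targets, 2 were higher in all 3 runs and 1, TP53I3 itself, was lower, and the DNA repair gene DDB2 differed by 0.65 ± 0.17 (adjusted p = 0.21). DDB2 had means of 5.56 untreated, 4.87 at 24 h and 5.52 at 48 h. DPM3, which anchors the dolichol phosphate mannose synthase in the endoplasmic reticulum, was at 4.40, 4.23 and 4.31 at 24 h and 3.76, 3.35 and 3.73 at 48 h (−0.70 ± 0.12, adjusted p = 0.127). Like MMP9, it passed the filter only through its 3 arrays at 24 h, and it was at 3.88, 3.88 and 3.82 in untreated cells.

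All 7 tested metallothioneins, small proteins that bind zinc and copper, were lower at 48 h in all 3 runs, with a median of −0.23. MT1M was at 7.20, 6.93 and 6.92 at 24 h and 6.65, 6.30 and 6.23 at 48 h, with no overlap (−0.62 ± 0.14, adjusted p = 0.176). MT1G (−0.34 ± 0.12), MT1F (−0.30 ± 0.13) and MT1X (−0.23 ± 0.12) followed. These genes are near copies of each other and their probe sets can share signal, so the 7 are not independent readings. Their median genomic span is 1.33 kb, and with the span adjustment the median was −0.10.

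Of 24 tested glycolysis and hypoxia genes 8 were higher in all 3 runs and 1 lower, against 21.1% and 22.3% of all genes tested. The median was 0.02 (0.09 with the span adjustment), and none passed the threshold. Core glycolytic enzymes such as GAPDH (0.01), ALDOA (0.02) and TPI1 (0.00) lay near 0. ADM, BNIP3 and NDRG1 had fallen at 24 h (adjusted p = 0.00732, 0.0265 and 0.0079), and their later differences use the same 24 h arrays. Adrenomedullin (ADM), a vasodilator peptide, had means of 4.53, 3.67 and 4.25 (0.57 ± 0.15, adjusted p = 0.21), BNIP3, a mitophagy receptor, 10.14, 9.20 and 9.65 (0.45 ± 0.22, adjusted p = 0.347) and NDRG1, a stress-responsive gene, 5.98, 5.06 and 5.46 (0.40 ± 0.16, adjusted p = 0.286). ENO2, an enolase isoform, differed by 0.61 ± 0.39, of which run 1 gave 1.35 and run 3 only 0.12. NDRG1 ranged from 0.22 to 0.60 with an array or a run left out, and ENO2 from 0.23 to 0.99. In fatty acid metabolism ACSL1, which activates long-chain fatty acids, had means of 5.35, 3.51 and 2.99 (−0.52 ± 0.15, adjusted p = 0.227), and only its untreated arrays reached the filter level. Of 33 respiratory chain genes 4 were higher and 12 lower (median −0.06), and of 37 ribosomal protein genes 0 were higher and 15 lower, with a median of −0.01 and a range of −0.14 to 0.13. The respiratory chain list has a median span of 12.6 kb, and of tested genes spanning 9.27 to 20.8 kb 27.9% were lower in all 3 runs. The ribosomal list has a median span of 5.04 kb, and of the shortest tested genes (0.085 to 9.26 kb) 41.5% were. With the span adjustment the medians were 0 for the respiratory chain and 0.08 for the ribosomal list.

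**Figure D3:**
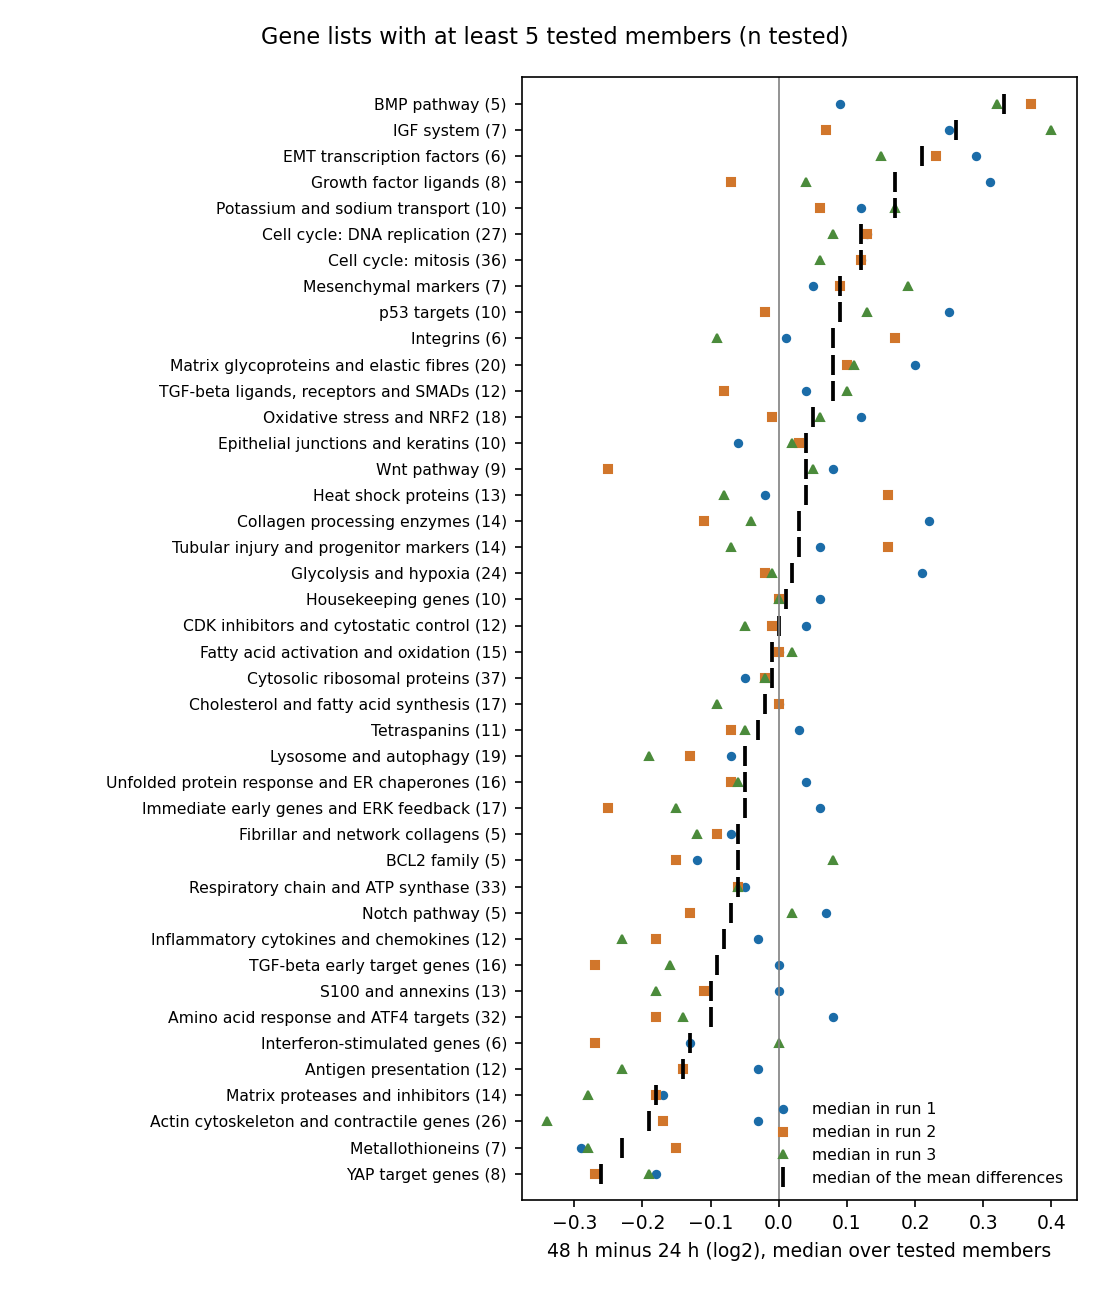
Median difference of 48 h minus 24 h (log2, horizontal axis) over the tested members of each gene list with at least 5 of them, 1 marker per run and a bar for the median of the mean differences. Medians of the mean differences ran from −0.26 for YAP target genes to 0.33 for the BMP pathway, and the 3 runs lay on opposite sides of 0 for lists such as the Wnt pathway (0.08, −0.25 and 0.05).

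Genes of the TGF-beta response that rose at 24 h stood differently at 48 h. The unadjusted 95% interval of the later difference included 0 for JAG1, INHBA, TGFBI, HES1, PMEPA1, SMAD7 and IL11. It lay above 0 for MMP1, SLC7A11 and GREM1 and below 0 for CCN2, and none of these passed the threshold. JAG1, the Notch ligand, was at 9.47, 9.01 and 9.92 at 24 h and 9.77, 9.07 and 9.93 at 48 h, a difference of 0.13 with a 95% interval of −0.26 to 0.51. INHBA, the activin A subunit, was at 7.75, 6.50 and 6.50 and then 7.25, 6.50 and 7.04 (0.01, interval −0.49 to 0.52). TGFBI, a secreted adhesion protein, was at 10.55, 10.55 and 11.20 and then 10.76, 10.66 and 11.01 (0.04, interval −0.24 to 0.32). In these genes the 2 times overlapped. The intervals bound the difference to under 1 in either direction for JAG1, INHBA, TGFBI, HES1 (−0.07, interval −0.45 to 0.31), PMEPA1 (−0.22, interval −0.52 to 0.09), SMAD7 (0.08, interval −0.60 to 0.76) and IL11 (0.02, interval −0.42 to 0.46), each of which rose at 24 h by 1.62 or more.

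CCN2, the matricellular growth factor, was at 7.39, 7.97 and 7.71 at 24 h and 7.39, 7.25 and 6.69 at 48 h. Run 1 did not differ and runs 2 and 3 were lower by 0.72 and 1.02 (−0.58, interval −1.13 to −0.03, adjusted p = 0.295). Of 16 tested early TGF-beta targets 1 was higher in all 3 runs and 6 were lower, with a median of −0.09 (−0.19 with the span adjustment). SPHK1, which makes sphingosine 1-phosphate, had means of 2.71, 4.93 and 4.31 (−0.62 ± 0.22, adjusted p = 0.262), LMCD1, a LIM protein, 4.91, 7.44 and 7.09 (−0.34 ± 0.26, adjusted p = 0.509) and JUNB, an AP-1 factor, 4.42, 5.55 and 5.22 (−0.33 ± 0.16, adjusted p = 0.347). All 3 were above untreated cells at 48 h (adjusted p = 0.00247, 0.00141 and 0.0146). Run 2 gave −1.20 for SPHK1 against −0.22 and −0.43, and leaving out an array or a run took SPHK1 to between −0.81 and −0.32, LMCD1 to between −0.50 and −0.07, JUNB to between −0.46 and −0.19 and CCN2 to between −0.87 and −0.27. Of the 12 tested ligands, receptors and SMADs 1 was higher and 2 lower, and SMAD2, the receptor-activated SMAD, gave 0.61 ± 0.24 on the set used (adjusted p = 0.281) but 0.19 and 0.16 on its other sets. Its runs differed by 0.00, 0.51 and 1.30, and the mean ranged from 0.25 to 0.91 with an array or a run left out.

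In the BMP pathway, which shares SMAD4 with TGF-beta, ID1 and ID2, inhibitors of differentiation factors and direct BMP targets, were higher at 48 h by 0.42 ± 0.14 and 0.37 ± 0.12 (adjusted p = 0.249 for each). ID1 had means of 7.96, 8.51 and 8.93, and ID2 of 7.47, 6.02 and 6.40. The BMP antagonist GREM1 was at 9.43, 9.22 and 9.29 at 24 h and 9.52, 9.59 and 9.82 at 48 h, with no overlap (0.33, interval 0.05 to 0.60, adjusted p = 0.262). FSTL3, which binds activin, had 2.71, 4.89 and 4.24 (−0.66 ± 0.18, adjusted p = 0.217), and the ligand BMP2 4.37, 4.41 and 4.06 (−0.35 ± 0.14, adjusted p = 0.281, and −0.49 to −0.20 with an array or a run left out). All 5 tested members kept 1 sign in the 3 runs, 3 higher and 2 lower, and none passed the threshold.

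DKK1, a secreted Wnt inhibitor, was at 3.78, 5.02 and 3.50 untreated, 5.18, 6.57 and 5.43 at 24 h and 4.89, 5.27 and 4.17 at 48 h. Run 1 was lower by 0.29 and runs 2 and 3 by 1.30 and 1.26 (−0.95 ± 0.20, adjusted p = 0.176). The non-canonical ligand WNT5B had means of 4.10, 6.05 and 5.57 (−0.48 ± 0.22, adjusted p = 0.332). Run 1 was higher by 0.08 and runs 2 and 3 lower by 0.71 and 0.79, and the mean ranged from −0.80 to −0.31 with an array or a run left out. Of 9 tested Wnt genes 0 were higher and 1 lower in all 3 runs. RBPJ, the DNA-binding partner of Notch, had 8.02, 7.67 and 8.42 (0.75 ± 0.21, adjusted p = 0.217) and 0.61 on its other tested set. TGFA, a ligand of the EGF receptor, was at 8.86, 8.73 and 9.22 untreated, 7.20, 7.13 and 7.92 at 24 h and 8.22, 7.61 and 8.59 at 48 h. Its difference was 0.72 ± 0.14 (adjusted p = 0.165), after a fall at 24 h (−1.52, adjusted p = 0.000394). DUSP5, a phosphatase that acts on ERK, had 6.17, 4.38 and 3.79 (−0.59 ± 0.22, adjusted p = 0.268). Its runs differed by −0.10, −1.08 and −0.60, and the mean ranged from −0.84 to −0.30 with an array or a run left out. In the IGF system 4 of 7 genes were higher in all 3 runs and 0 lower (median 0.26), against 21.1% and 22.3% of all genes tested. IGFBP3 was at 0.41 ± 0.17 and the receptor IGF1R at 0.35 ± 0.21 (0.11 to 0.58 with an array or a run left out). The IGF genes are long (median span 68.5 kb), and of tested genes spanning 39.4 to 79.8 kb 28.1% were higher and 14.3% lower in all 3 runs. With the span adjustment the IGF median was 0.18.

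For SNAI2, CDH2, VIM and TAGLN, genes used as markers of EMT, the 95% interval of the difference included 0. SNAI2, a repressor of epithelial genes, was at 5.30, 6.09 and 5.59 at 24 h and 5.98, 6.26 and 6.09 at 48 h (0.45, interval −0.09 to 1.00, adjusted p = 0.371), and its mean ranged from 0.21 to 0.70 with an array or a run left out. Of 6 tested EMT transcription factors 4 were higher in all 3 runs and 0 lower (median 0.21), against 21.1% and 22.3% of all genes tested. The N-cadherin gene CDH2 (0.09, interval −0.33 to 0.52) and vimentin, VIM (−0.02, interval −0.28 to 0.24), lay near 0. TAGLN, a smooth muscle actin-binding protein, was at 7.51, 7.79 and 8.38 and then 7.27, 7.58 and 7.72 (−0.37, interval −1.05 to 0.31, and −0.54 to −0.02 with an array or a run left out). Of 26 actin cytoskeleton genes 5 were higher in all 3 runs and 11 lower (median −0.19), among them the focal adhesion protein ZYX (−0.46 ± 0.11, adjusted p = 0.194, and −0.61 on its other set) and the calponin CNN2 (−0.38 ± 0.13, adjusted p = 0.249), against non-muscle myosin MYH10 (0.42 ± 0.16, adjusted p = 0.268). Of 8 YAP targets 0 were higher and 3 lower (median −0.26), with the receptor kinase AXL at −0.28 ± 0.10 and the angiomotin AMOTL2 at −0.27 ± 0.11. The YAP targets are short genes (median span 7.89 kb), and of the shortest tested genes 41.5% were lower in all 3 runs. With the span adjustment their median was −0.20.

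On the epithelial side CLDN1, a tight junction protein, was at 6.48, 6.87 and 6.61 and then 6.33, 6.60 and 6.28 (−0.25, interval −0.50 to 0.00), and EPCAM, an epithelial adhesion molecule, at 7.15, 7.07 and 7.07 and then 7.09, 7.26 and 7.22 (0.09, interval −0.20 to 0.39). DSP, the desmosomal plaque protein desmoplakin, was at 3.11, 3.22 and 3.75 untreated, 4.39, 4.18 and 4.92 at 24 h and 4.96, 4.62 and 5.69 at 48 h. It was higher in each run, by 0.57, 0.44 and 0.77 (0.59 ± 0.13, adjusted p = 0.176). KRT18, a keratin of simple epithelia, differed by −0.42 ± 0.13 (adjusted p = 0.247). Epithelial junction and keratin genes thus stood on both sides, with 3 of 10 higher and 4 lower in all 3 runs. GDF15, a stress cytokine of the TGF-beta family, stayed low, at 2.56, 3.91 and 3.01 and then 3.26, 3.83 and 3.17, after 6.93, 7.96 and 6.69 in untreated cells. CDH1, SNAI1 and ACTA2 did not pass the filter.

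**Figure D4:**
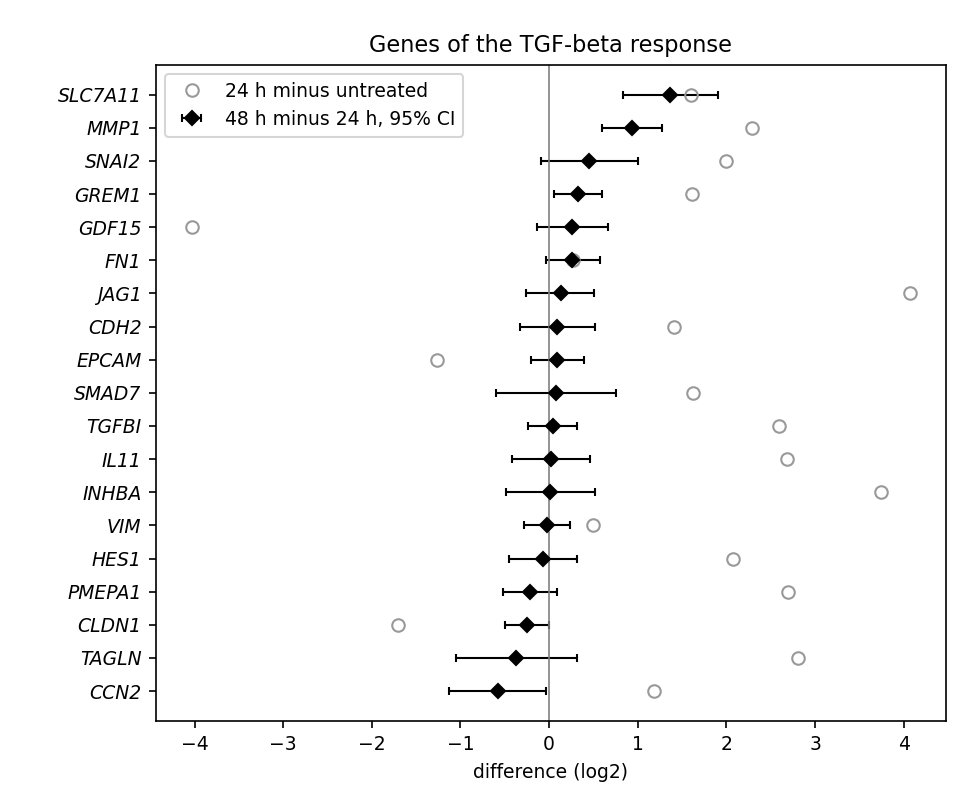
Genes of the TGF-beta response: 48 h minus 24 h with its 95% confidence interval (filled diamonds) and 24 h minus untreated (open circles), both in log2 on the horizontal axis. For JAG1, INHBA, TGFBI, PMEPA1 and IL11 the open circle lies beyond 2.5 and the diamond within 0.22 of 0, while MMP1 and SLC7A11 have intervals above 0.5.

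Of 36 tested mitosis genes 16 were higher in all 3 runs and 3 lower. Of 27 replication genes 10 were higher and 1 lower, against 21.1% and 22.3% of all genes tested. Each list had a median of 0.12 (0.19 and 0.14 with the span adjustment). None passed the threshold. CENPF, a kinetochore protein, differed by 0.35, 1.27 and 0.44 in the 3 runs (0.68 ± 0.22, adjusted p = 0.245). The mitotic kinesin KIF11 differed by 0.57 ± 0.21 (adjusted p = 0.268), the checkpoint kinase BUB1 by 0.55 ± 0.21 (adjusted p = 0.273), the polymerase POLA1 by 0.51 ± 0.16 (adjusted p = 0.234) and the helicase subunit MCM6 by 0.38 ± 0.13 (adjusted p = 0.249). Other mitosis genes were flat, such as PLK1 (0.05), AURKA (0.04) and CCNB1 (−0.09). The 3 lower members included UBE2C (−0.15) and CENPA (−0.22). Leaving out an array or a run took CENPF to between 0.39 and 0.90, KIF11 to between 0.33 and 0.80 and BUB1 to between 0.36 and 0.77.

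The remaining named genes act in the nucleus, in trafficking or in the cytoskeleton. CTR9, a subunit of the PAF1 complex that travels with RNA polymerase II, was at 5.52, 5.89 and 5.38 untreated, 4.62, 4.63 and 4.88 at 24 h and 5.67, 5.69 and 5.61 at 48 h. The 48 h arrays lay above all 24 h arrays and within the untreated range (0.94 ± 0.15, adjusted p = 0.127, after a fall by 0.89 from untreated to 24 h, adjusted p = 0.00668). PDS5B, a cohesin regulator, was at 4.69, 4.01 and 3.90 at 24 h and 5.38, 4.69 and 4.73 at 48 h (0.73 ± 0.15, adjusted p = 0.176). Its mean was 4.85 untreated and 4.93 at 48 h, and 24 h minus untreated was −0.66 (adjusted p = 0.029). DST, a large linker of cytoskeletal filaments, was at 5.15, 4.10 and 4.57 and then 6.02, 4.90 and 5.70 (0.94 ± 0.18, adjusted p = 0.165), and 0.64 on its other tested set. The DST mean was 5.16 untreated, 4.60 at 24 h and 5.54 at 48 h.

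RBM26, an RNA-binding protein, was at 4.28, 3.41 and 4.03 at 24 h and 5.10, 4.44 and 4.70 at 48 h (0.84 ± 0.18, adjusted p = 0.176). Its mean was 4.53 untreated, 3.91 at 24 h and 4.74 at 48 h. The ubiquitin ligase PJA2 was at 4.21, 2.52 and 3.84 and then 5.30, 3.90 and 4.76 (1.13 ± 0.34, adjusted p = 0.227), and the zinc finger gene ZNF814 at 4.82, 4.93 and 4.71 and then 5.62, 5.64 and 5.32 (0.71 ± 0.16, adjusted p = 0.176). Untreated means were 4.27 for PJA2 and 4.92 for ZNF814, against 3.52 and 4.82 at 24 h. The levels of RBM26, PJA2 and ZNF814 lie near the filter of log2 4, and ZNF814 was read by a set for a family of related sequences. NOP16, POLR1C and RCC1 were lower. NOP16, a nucleolar protein of ribosome assembly, was at 7.35, 7.74 and 6.75 and then 6.52, 7.06 and 6.10 (−0.72 ± 0.13, adjusted p = 0.137), and −0.60 on its other bright set. Its mean was 6.58 untreated and 6.56 at 48 h, and 24 h minus untreated was 0.70 (adjusted p = 0.0108). POLR1C, a subunit of RNA polymerases I and III, was at 6.15, 6.79 and 6.22 and then 5.45, 6.19 and 5.39 (−0.71 ± 0.19, adjusted p = 0.217), but −0.15 on its other set. The POLR1C mean was 5.81 untreated, 6.39 at 24 h and 5.68 at 48 h. RCC1, the chromatin-bound exchange factor for Ran, was at 4.82, 5.51 and 4.32 and then 4.23, 4.60 and 3.72 (−0.70 ± 0.15, adjusted p = 0.176). A dim second set of RCC1 gave −0.22.

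The length of a gene in the genome moved with its difference between the times. The 12 higher named genes had a median genomic span of 76.8 kb in RefSeq and the 12 lower ones 11 kb, against 29.0 kb over all genes tested. Over the 874 genes with the shortest span (0.085 to 9.26 kb) the median difference was −0.10, with 8.70% higher and 41.5% lower in all 3 runs. Over the 874 with the longest span (79.8 to 1230 kb) it was 0.15, with 34.8% higher and 9.95% lower. Each run showed this order, with medians of −0.05, −0.13 and −0.12 for the shortest genes and 0.07, 0.17 and 0.16 for the longest. Across the 4368 genes, all read on the same arrays, Spearman's rho between span and difference was 0.367, while it was −0.0105 for mean level and −0.0534 for GC content of the promoter (85% of genes had a value).

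For 24 h minus untreated, which shares the 24 h arrays, the same sets of genes had medians of 0.06 (shortest) and −0.06 (longest). The 3′ minus 5′ log2 signal, a sign of RNA integrity and labelling, was 0.89 to 1.03 at 24 h and 0.96 to 1.09 at 48 h for ACTB, higher at 48 h in each run by a small amount, and 0.17 to 0.22 and 0.15 to 0.30 for GAPDH. The part of span and of RNA quality in the results was not tested. With each array adjusted for span, an alternative added after this relation was seen, all 24 named genes kept their direction and 0 genes were called (661 at an unadjusted p below 0.05). FXYD2 had −0.98 (adjusted p = 0.0577), MMP1 1.02, SLC7A11 1.26, MMP9 −1.63 and IL6 −0.71, while the longest named genes moved toward 0, DST to 0.75 and FBN1 to 0.60.

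**Figure D5:**
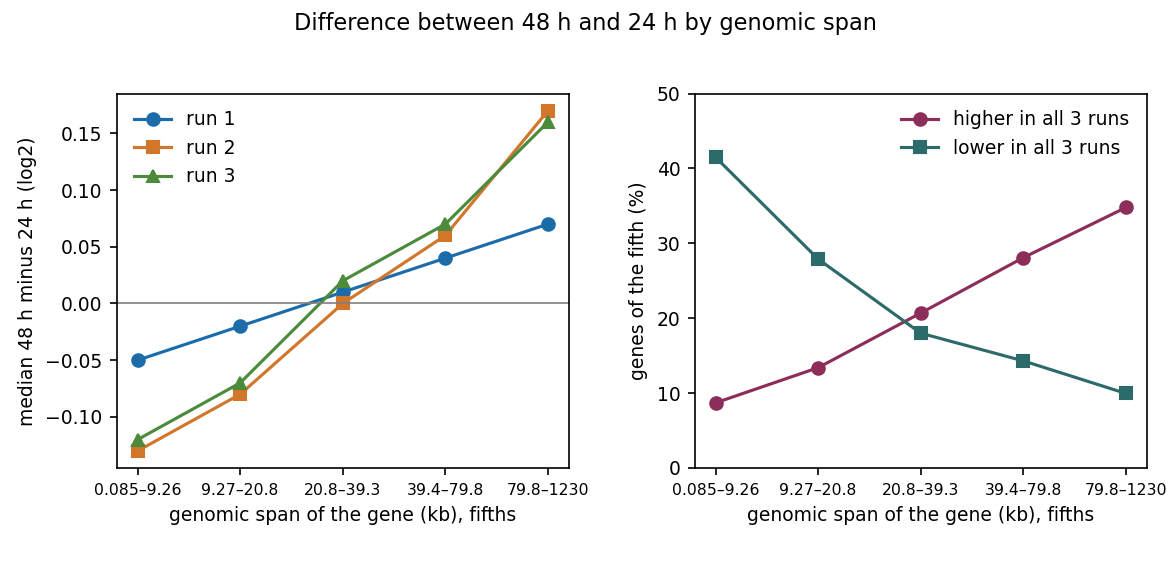
Left, median difference of 48 h minus 24 h (log2) in 5 sets of genes ordered by genomic span in kb, 1 line per run. Right, percent of each set that was higher (circles) or lower (squares) at 48 h in all 3 runs. The medians rise with span in every run, and the percent lower goes from 41.5% in the shortest set to 9.95% in the longest.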

How the data were processed

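Total RNA of the 9 pooled cultures was hybridised to 1-colour Affymetrix arrays. The authors deposited log2 values, 1 per probe set, and the submitters' processing notes name GCRMA as the method. It models background from probe sequence, normalizes between arrays and summarises probes. Its effect on differences near background was not tested, so differences of dim sets are read with caution. No version of it is named, and the base of 2 was read from the values. No further normalization was applied. Of 22277 probe sets (62 controls), 19064 had 1 gene symbol, 1043 several and 2108 none. Names were updated through RefSeq gene IDs (19052 matched), and the set with the highest mean stood for a gene. Genes that reached log2 4 on 3 or more arrays were tested (4368 of 11963, or 36.5%).

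limma 3.58.1 in R 4.3.3 fitted all 9 arrays with group and run, with Benjamini-Hochberg adjustment at 0.05. Every p above comes from it, unless another setting is named. The ± values are SE, from 3 arrays per group. Precision is limited by the number of arrays: the median SE was 0.139, and an exact test on 3 pairs alone cannot go below a two-sided p of 0.25. Runs were checked as pairs: deviations from group means had correlations of 0.378 to 0.662 within a run and of −0.526 to 0.185 across runs. Deviations from a group mean cancel out over the 3 arrays, so positive values within runs push those across runs down. The contrast is therefore partly built in. The labels say the runs were on different days.

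Genes were named by 4 rules: called genes; otherwise the 12 per direction with the largest smallest run difference; up to 4 members per gene list; and 25 TGF-beta response genes, of which 1 is not reported here. Some further list members are given by value. The members and lists were chosen with earlier results of these data known, so nothing here is independent of them. No set test was run. The script was tested on simulated data. Alternatives were the fit without the run as a block, the 6 treated arrays alone, centring, quantile normalization, other filters, other probe set rules, an intensity trend with a robust prior, leaving out arrays or runs, and the span adjustment.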

Additional observations from a re-analysis of the deposited data

How the results depend on the processing

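Without the replicate block, 0 genes passed (219 at an unadjusted p below 0.05, smallest adjusted p 0.353), so the pairing of runs changed no call. The count was also 0 with the 6 treated arrays alone, with centred arrays, with no filter on dim sets, with every probe set tested and with the span adjustment, and in every fit that left out a run or an array (287 to 949 at an unadjusted p below 0.05). It was 1 with quantile normalization (FXYD2, 1 lower) and 1 with the mean of a gene's probe sets (FXYD2, 1 lower). It was 4 with a log2 floor of 6, which left 2647 genes (4 lower: FXYD2, SERPINA1, IL6 and TP53I3). It was 10 with an intensity trend and robust prior, 6 higher (MMP1, SLC7A11, ENPEP, TGFA, TNFSF10 and CTR9) and 4 lower (FXYD2, SERPINA1, MMP9 and IL6). The floor and the mean of a gene's probe sets tested fewer genes (2647 and 3770, against 4368 in the main fit). The cause of the added calls was not tested for any setting.

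Of 2177 values of 118 genes under alternatives, 2145 kept their direction, including all 433 of the 24 named genes. Leaving out an array or a run moved the difference by over 1.5 times, or across 0, for 47 of the 118 and for 0 of the 24. The 24 were named by their weakest run, so keeping direction and size here is largely built into their choice. The 32 values that reversed belong to genes near 0. VIM was at 0.02 and IL11 at −0.01 with quantile normalization, INHBA at −0.04 with the mean of probe sets, and HES1 at 0.04, CDH2 at −0.06 and VIM at 0.06 with the span adjustment. With arrays or runs left out, JAG1 ranged from 0.00 to 0.26, TGFBI from −0.07 to 0.15, HES1 from −0.25 to 0.06, CDH2 from −0.08 to 0.33, VIM from −0.13 to 0.05, IL11 from −0.14 to 0.17, INHBA from −0.25 to 0.31 and SMAD7 from −0.25 to 0.27. Of 836 list medians, 108 moved by more than 1 SD over runs, 12 of them with the span adjustment. No detection calls were used, so levels near the array median cannot be told from background.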

Other observations

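TNFSF10, the death ligand TRAIL, was named after its values were seen, since it passed the threshold only with an intensity trend and robust prior (0.56 ± 0.10, adjusted p = 0.0279). It was at 9.59, 9.75 and 9.37 in untreated cells, 8.59, 8.57 and 7.98 at 24 h and 8.96, 9.28 and 8.57 at 48 h. The arrays of the 2 treated times overlapped, and each run was higher at 48 h, by 0.37, 0.71 and 0.59. PDZK1IP1, a small membrane protein of the proximal tubule and the first gene outside the lower named set, was at 6.10, 5.57 and 6.45 at 24 h and 5.48, 4.40 and 5.87 at 48 h, after 7.71, 7.51 and 7.90 in untreated cells.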
